A study of Homo sapiens with 12 samples.

Results

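The 9 genes S100A2, S100A3, S100A4, S100A5, S100A6, S100A10, S100A11, S100A13 and S100A16 encode S100A proteins outside the set that marks terminal differentiation of squamous epithelium. They were taken by name from the 57820 gene identifiers counted, and all 9 were found. Of these, 8 passed the filter on low counts that left 16060 genes for testing, and S100A5 did not. The RNA came from 2 human squamous carcinoma lines of the esophagus, stably infected to express either a short hairpin RNA against UHRF1 (shUHRF1) or a scramble control. The 4 groups were Kyse410 with shUHRF1, Kyse410 with scramble, TE10 with shUHRF1 and TE10 with scramble, with 3 libraries of polyadenylated RNA each. The labels state neither the number of hairpin sequences nor whether the infected cells were a clone or a pool. Nor do they say that replicate libraries came from separate cultures, so each p-value reflects only how far these libraries scatter, possibly for technical reasons.

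S100 proteins are small proteins with paired EF-hand loops that usually work as dimers. Calcium binding opens a hydrophobic face through which they hold target proteins such as annexins and non-muscle myosin. S100A10 is the exception, since it stays in the open form without calcium. Several S100 proteins also leave the cell and act on surface receptors such as RAGE. Most S100A genes lie in a cluster on the long arm of chromosome 1, beside genes of the cornified envelope. UHRF1, the target of the hairpin, recognises hemimethylated DNA and brings the maintenance methyltransferase to it.

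UHRF1 served as the check of the labels. Its level, in CPM (a read count normalised for depth, here with library totals scaled by TMM), was 42.1, 43.5 and 41.9 in Kyse410 with shUHRF1, against 101, 101 and 95.1 with scramble. In TE10 it was 82.1, 86.8 and 88.9 CPM with shUHRF1, against 173, 179 and 184 CPM with scramble. UHRF1 was thus lower in every knockdown library of both lines. Libraries held 7857662 to 12005229 reads assigned to genes. Each of 10 squamous markers had reads in every group, but SOX2, a squamous lineage factor, averaged below 1 CPM in all 4 groups. The 8 blood cell markers summed to at most 1.4 CPM in any library. Mitochondrially encoded transcripts took 3.79 to 4.0% of gene reads in Kyse410 with shUHRF1 against 2.3 to 2.43% with scramble, and 4.95 to 5.73% in TE10 with shUHRF1 against 5.95 to 6.05% with scramble. With these transcripts left out of the counts, the call of no S100A gene changed in any of the 4 comparisons.

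The S100A genes stood in the same order in all 4 groups when levels were taken as CPM per kilobase of merged exons. S100A11 stood first, with 688.5 ± 13.6 CPM per kb in Kyse410 with shUHRF1 and 876 ± 43.5 with scramble, and with 719.8 ± 38.75 CPM per kb in TE10 with shUHRF1 and 906 ± 11.9 with scramble (mean ± SD, n = 3 each). S100A6, S100A16, S100A10 and S100A2 followed, then S100A4, S100A3, S100A13 and S100A5. The libraries of neighbours in this order did not overlap, except those of S100A3 and S100A13, which overlapped in Kyse410 with scramble and in TE10 with shUHRF1. In Kyse410 with scramble S100A3 had 2.775 ± 0.772 CPM per kb and S100A13 had 2.45 ± 0.217 CPM per kb. The length used for S100A13 includes the 33.5% of its exon bases shared with other genes. Its place beside S100A3 is therefore not firm. S100A5, known in the mouse from sensory neurons of the nose, was barely detected, with 6, 3 and 0 reads in Kyse410 with shUHRF1, against 4, 2 and 2 reads with scramble. In TE10 it had 0, 1 and 1 reads with shUHRF1, against 0, 1 and 3 reads with scramble. No comparison was made for S100A5 at this depth.

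**Figure D1:**
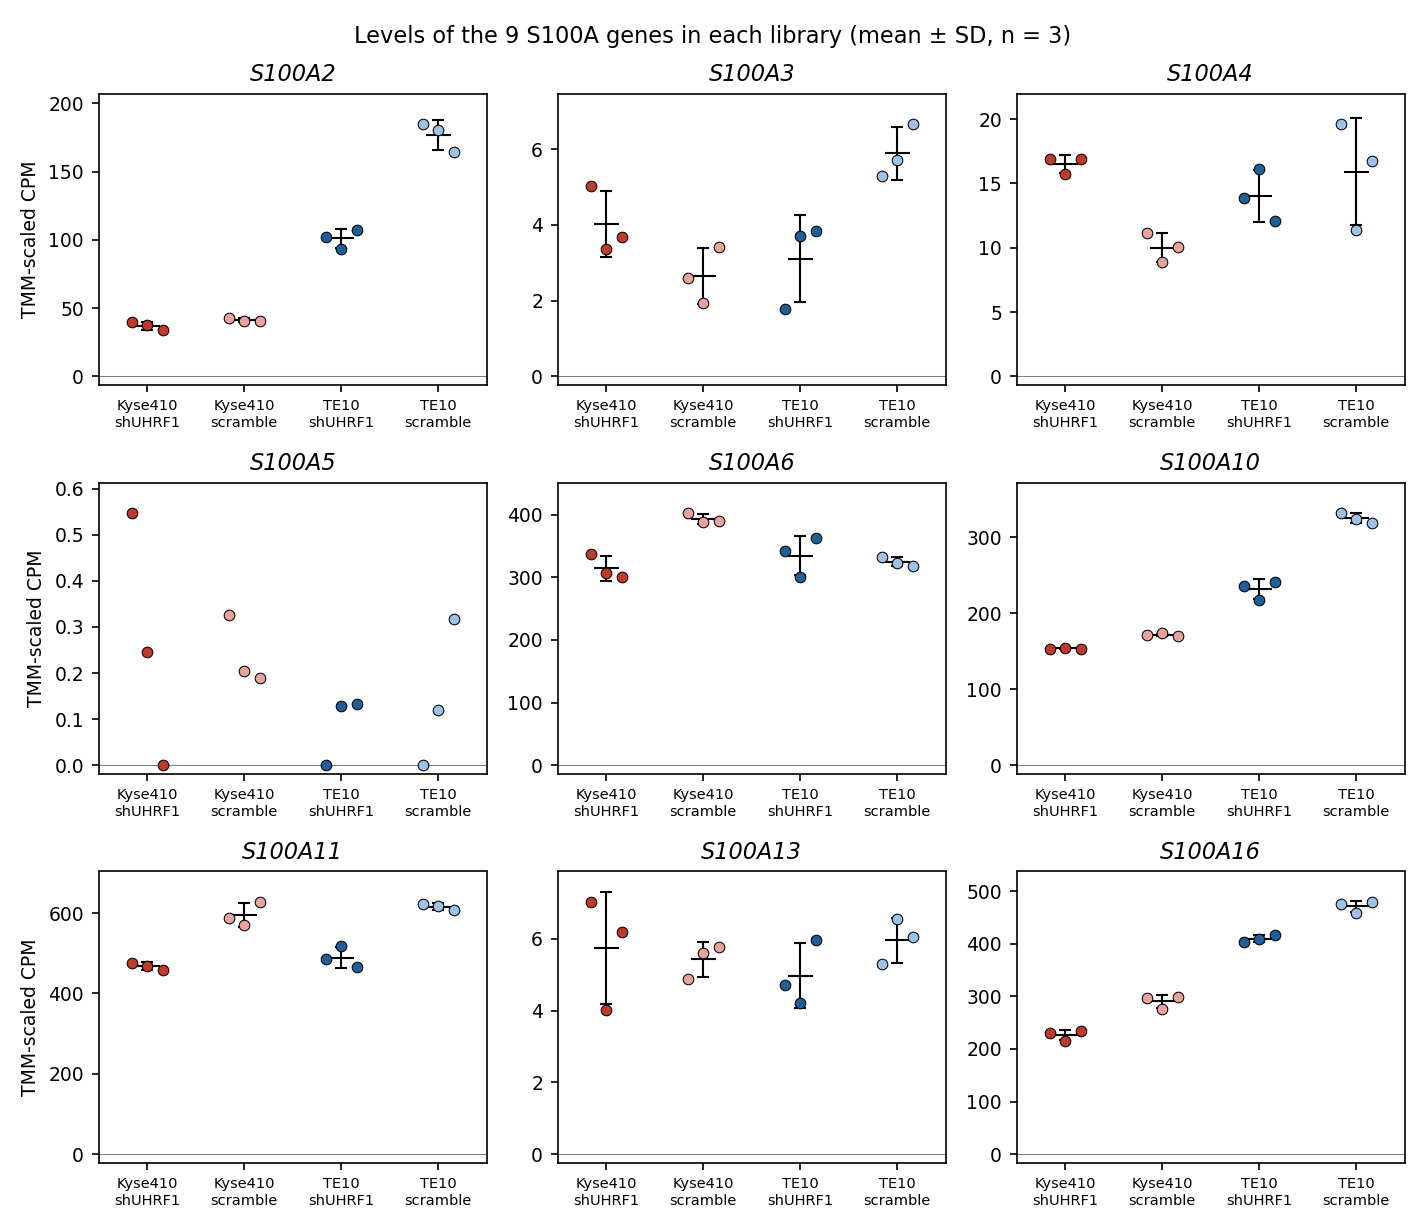
TMM-scaled CPM of each of the 9 genes in the 12 libraries, 1 panel per gene with its own linear axis from 0. Points are libraries, and bars give the mean and SD of 3 libraries (no bar for S100A5). S100A2 and S100A10 are lower in all Kyse410 libraries than in all TE10 libraries, and S100A11 is lower with shUHRF1 than with scramble in both lines.

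Taken as a share of all gene reads, the 9 genes together made up 0.128 ± 0.00242% in Kyse410 with shUHRF1 and 0.155 ± 0.00401% with scramble (mean ± SD, n = 3 each). In TE10 they made up 0.153 ± 0.00305% with shUHRF1 and 0.187 ± 0.00292% with scramble. The knockdown libraries of each line all lay below its scramble libraries. Within the family, S100A11 supplied 38.2 ± 0.6285% of the reads in Kyse410 with shUHRF1 and 39.4 ± 1.07% with scramble, and 30.8 ± 2.17% in TE10 with shUHRF1 and 31.7 ± 0.2495% with scramble. S100A6 supplied 25.6 ± 0.901% in Kyse410 with shUHRF1 and 26.1 ± 0.739% with scramble. In TE10 its share was 21.05 ± 1.64% with shUHRF1 and 16.7 ± 0.1002% with scramble, so the mean share was higher after knockdown there. A share also shifts when the other members change, and the CPM of S100A6 itself overlapped between the TE10 groups. S100A2 gave 3.02 ± 0.17% of the family reads in Kyse410 with shUHRF1 and 2.73 ± 0.119% with scramble, and 6.36 ± 0.337% in TE10 with shUHRF1 and 9.10 ± 0.462% with scramble.

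**Figure D2:**
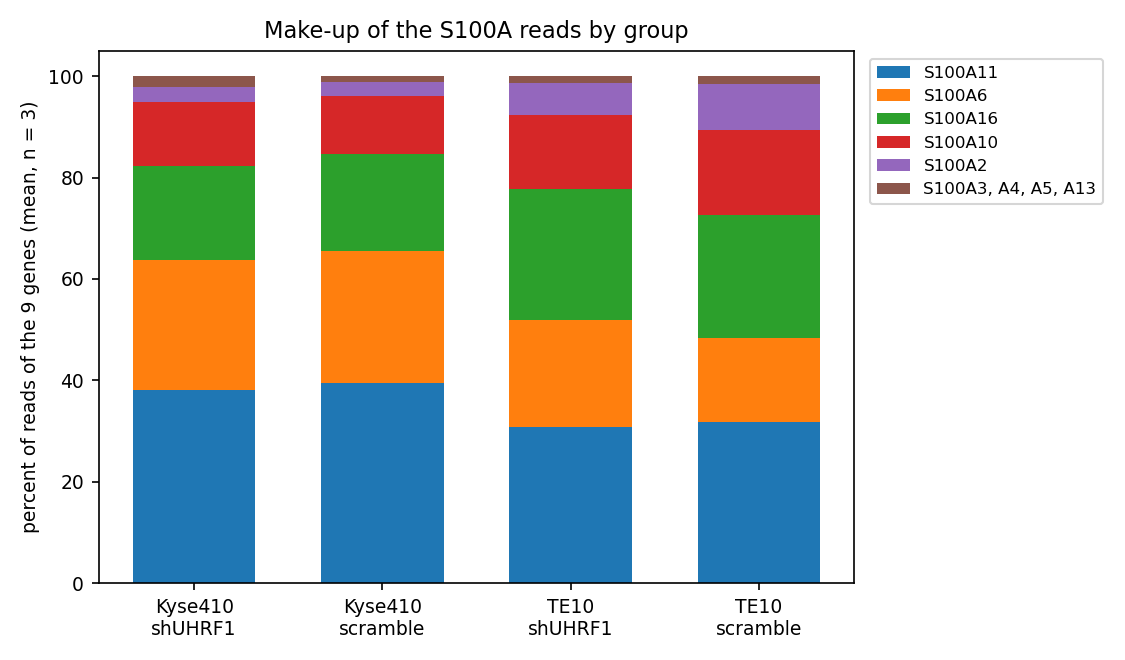
Percent of the reads of the 9 genes that each gene supplied, as the mean of 3 libraries in each group. S100A11 is the largest part in every group, and the part of S100A2 is smaller in Kyse410 (3.02% with shUHRF1 and 2.73% with scramble) than in TE10 (6.36% and 9.10%).

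Because the hairpin targets a protein of DNA methylation, the start regions of 4 members are shown, with every CpG in capitals. They set the starts of S100A2 and S100A4, with fewer CpGs, beside those of S100A10 and S100A11, with more. Sequences are from RefSeq on build GRCh38.p14, minus strand, 250 bases before to 50 after the start, written 5′ to 3′.
S100A2 (upstream start), chr1:153565795-153566094: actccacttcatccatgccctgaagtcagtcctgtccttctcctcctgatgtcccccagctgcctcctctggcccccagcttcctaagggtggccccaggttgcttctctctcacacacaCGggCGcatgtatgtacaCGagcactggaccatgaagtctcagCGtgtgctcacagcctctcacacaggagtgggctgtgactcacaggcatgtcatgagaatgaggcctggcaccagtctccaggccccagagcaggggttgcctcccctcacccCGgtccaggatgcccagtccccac
S100A4, chr1:153545757-153546056: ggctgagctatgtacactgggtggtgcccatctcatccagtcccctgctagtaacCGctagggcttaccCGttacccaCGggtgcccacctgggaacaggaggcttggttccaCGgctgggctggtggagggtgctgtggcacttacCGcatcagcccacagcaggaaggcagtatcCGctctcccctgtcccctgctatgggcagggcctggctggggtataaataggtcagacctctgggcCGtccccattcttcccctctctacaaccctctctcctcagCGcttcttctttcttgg
S100A10, chr1:151993810-151994109: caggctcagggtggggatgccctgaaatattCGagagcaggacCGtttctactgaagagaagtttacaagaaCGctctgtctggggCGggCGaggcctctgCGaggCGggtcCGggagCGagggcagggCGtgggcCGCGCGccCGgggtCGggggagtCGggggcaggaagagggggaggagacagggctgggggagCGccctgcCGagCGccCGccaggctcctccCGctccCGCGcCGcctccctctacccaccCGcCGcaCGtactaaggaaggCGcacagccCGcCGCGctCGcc
S100A11, chr1:152036955-152037254: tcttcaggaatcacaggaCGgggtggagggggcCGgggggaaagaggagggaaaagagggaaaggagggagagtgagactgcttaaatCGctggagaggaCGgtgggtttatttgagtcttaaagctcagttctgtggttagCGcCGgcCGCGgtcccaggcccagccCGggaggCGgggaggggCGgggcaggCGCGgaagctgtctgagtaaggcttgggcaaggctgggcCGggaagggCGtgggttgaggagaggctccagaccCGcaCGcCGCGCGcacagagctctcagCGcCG
The S100A2 window held 5 CpGs and that of S100A4 held 8, while those of S100A10 and S100A11 held 32 and 22. The median over 35116 promoter windows of the same length was 14. All 9 genes had at least 1 window in the table, 14 windows in all. S100A6 (31 CpGs) was above this median, and S100A3 (5) and both windows of S100A16 (3 and 8) were below it. So were both of S100A5 (6 and 1), while those of S100A13 lay on both sides (19, 11 and 12). Of all windows, 81.1% had fewer CpGs than that of S100A10 and 62.3% fewer than that of S100A11. For the windows shown of S100A2 and S100A4 these shares were 29.6% and 39.3%. The motif TGANTCA, the AP-1 consensus, which reads the same on both strands, was in 3 of the 14 windows and in 7.71% of all windows. The 3 were that shown for S100A2, that of S100A3 and 1 of S100A5, while the other S100A2 window had 0 matches. The motif GGGCGG, sought on both strands and bound by SP1, was in 6 of the 14 windows and in 44.95% of all windows. A match describes the letters of the window and not a bound site, and methylation was not measured in these files.

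In Kyse410, 4 of the 8 tested genes fell (S100A6, S100A10, S100A11 and S100A16) and 2 rose (S100A3 and S100A4), where 49.3% of all genes tested were called (26.7% lower and 22.6% higher). In TE10, 5 fell (S100A2, S100A3, S100A10, S100A11 and S100A16) and 0 rose, where 38.8% of all genes were called (20.0% lower and 18.8% higher). A call is an adjusted p under 0.05 in edgeR's quasi-likelihood test, with the Benjamini-Hochberg adjustment taken over every gene tested. In TE10, edgeR's quasi-likelihood test found 0 members higher at an unadjusted p under 0.05 as well, and DESeq2 called 0 higher. The members' median log2 fold change was −0.16 in Kyse410, against −0.03 over all genes, and −0.30 in TE10, against 0.0 over all genes. In Kyse410, S100A3 was called with overlapping groups, while S100A2 was not called although its groups did not overlap. In bulk RNA, fewer cells that express a gene and less of its RNA per cell cannot be told apart.

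**Figure D3:**
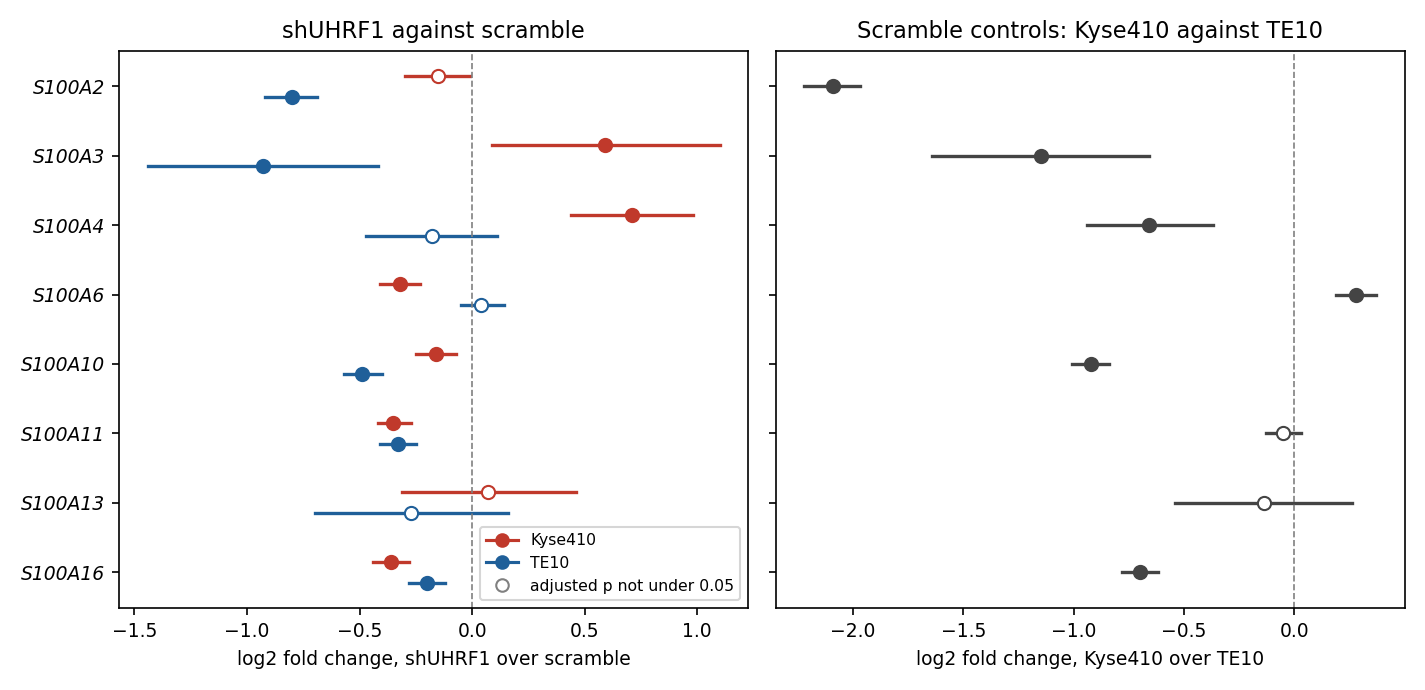
Log2 fold change of the 8 tested genes with 95% confidence intervals, for shUHRF1 over scramble in each line (left) and for Kyse410 over TE10 among scramble controls (right). Filled points passed an adjusted p of 0.05. S100A11 has like values in both lines (−0.35 in Kyse410 and −0.33 in TE10), S100A3 and S100A4 lie apart between the lines, and S100A2 has the largest distance between the scramble controls (−2.09).

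S100A10 joins annexin A2 in a complex at the plasma membrane that takes part in plasminogen activation at the cell surface. It had 153, 155 and 153 CPM in Kyse410 with shUHRF1, against 171, 173 and 170.2 CPM with scramble. In TE10 it had 236, 217 and 242 CPM with shUHRF1, against 332, 324 and 319 CPM with scramble. The groups did not overlap in either line, and the fall was deeper in TE10. It came to 10.4% in Kyse410 (log2 −0.16 ± 0.0436, SE; edgeR adjusted p = 0.00210) and to 28.7% in TE10 (log2 −0.49 ± 0.0421; adjusted p = 4.25e-14). The difference between the lines passed its own test, at 0.33 ± 0.0606 on the log2 scale for Kyse410 minus TE10 (adjusted p = 1.33e-05).

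S100A11, a partner of annexin A1, fell in both lines. It had 477, 469 and 458.5 CPM in Kyse410 with shUHRF1, against 588, 570.4 and 628 CPM with scramble. TE10 libraries held 485, 518 and 466 CPM with shUHRF1, against 624, 617 and 607.5 CPM with scramble. Every knockdown library lay below every scramble library of its line. The fall was 21.4% in Kyse410 (log2 −0.35 ± 0.03825; adjusted p = 5.4e-11) and 20.5% in TE10 (log2 −0.33 ± 0.0390; adjusted p = 6.345e-10). The log2 difference between these responses was −0.02, with a 95% interval of −0.13 to 0.09 (adjusted p = 0.8515). The 7 annotated S100A11 pseudogenes with a count held 0 reads in all 12 libraries.

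The partners of these members did not all move with them. ANXA2, which encodes annexin A2, had 1271, 1192 and 1151 CPM in Kyse410 with shUHRF1, against 1605, 1593 and 1655 CPM with scramble. In TE10 it had 1720, 1699 and 1832 CPM with shUHRF1, against 2316, 2326 and 2265 CPM with scramble. ANXA2 fell in both lines without overlap, by 0.43 ± 0.0343 on the log2 scale in Kyse410 (adjusted p = 2.18e-15) and by 0.40 ± 0.0342 in TE10 (adjusted p = 4.88e-14). AHNAK, a very large scaffold protein that binds the complex of S100A10 and annexin A2, fell by 0.38 ± 0.0352 in Kyse410 (adjusted p = 1.92e-13) and by 1.03 ± 0.0363 in TE10 (adjusted p = 1.055e-29). As with S100A10, the fall was smaller in Kyse410, with a difference of 0.65 ± 0.0504 (adjusted p = 1.41e-15). ANXA1 had log2 fold changes of −0.01 ± 0.03265 in Kyse410 (adjusted p = 0.7805) and 0.00 ± 0.0331 in TE10 (adjusted p = 0.967). Of 10 annexin genes tested, 4 rose and 3 fell in Kyse410, with a median log2 fold change of −0.01, and 1 rose and 4 fell in TE10, with a median of −0.25. In Kyse410 the calls numbered 4 without shUHRF1 replicate 1 and 4 without scramble replicate 2. Over all genes tested, 49.3% were called in Kyse410 and 38.8% in TE10. ANXA5, which encodes a phosphatidylserine-binding annexin, fell by 0.27 ± 0.0383 in Kyse410 and by 0.32 ± 0.0387 in TE10. ANXA11, known as a partner of S100A6, rose by 0.48 ± 0.0448 in Kyse410 (adjusted p = 2.28e-13). In TE10 it was at 0.11 ± 0.0446 (adjusted p = 0.0382), a call lost without shUHRF1 replicate 3, scramble replicate 1 or scramble replicate 3 (adjusted p = 0.0845, 0.149 and 0.0824) and without a filter on low counts (0.122).

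**Figure D4:**
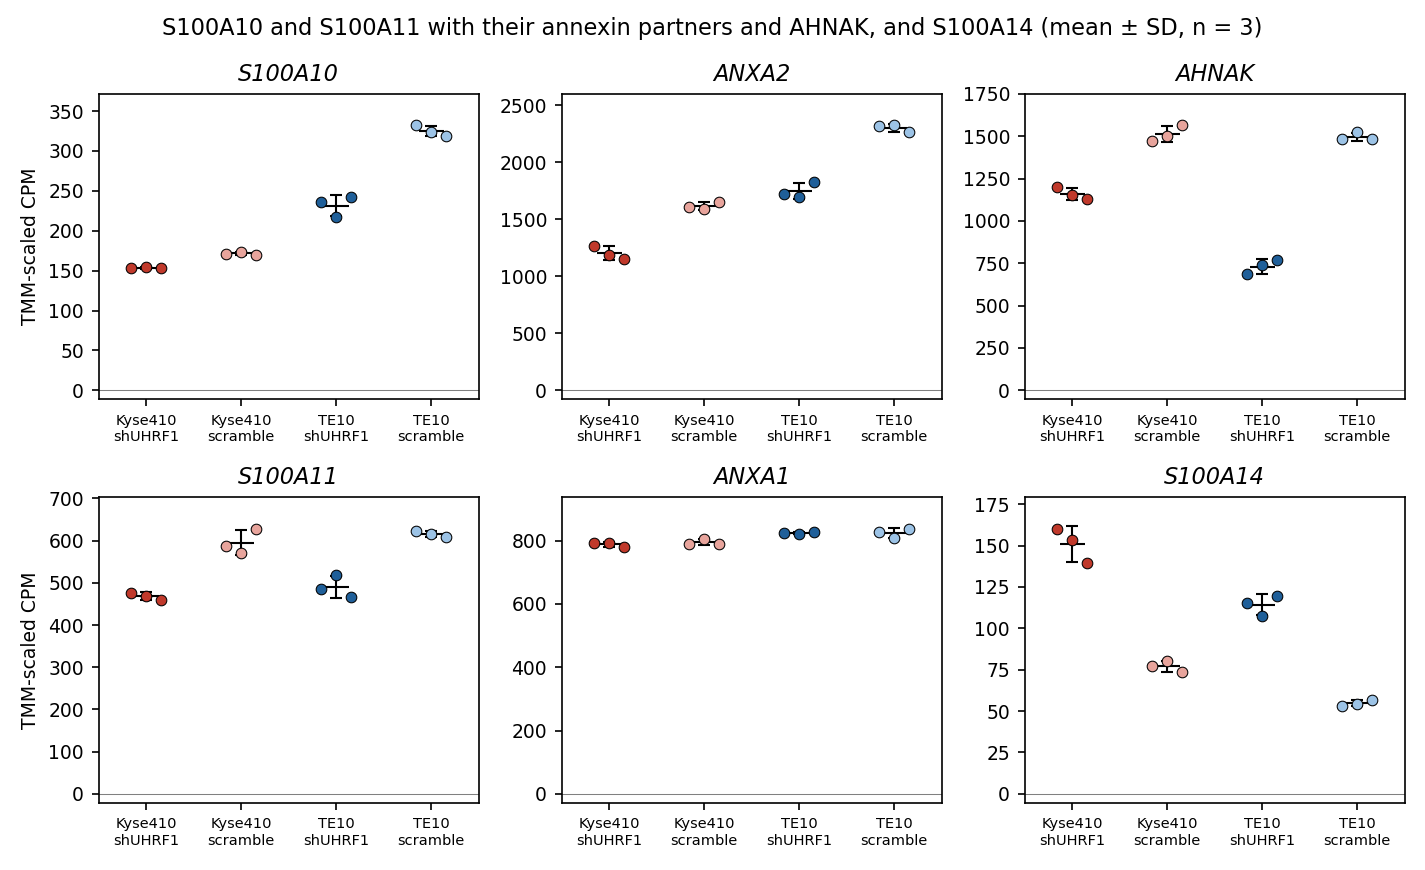
TMM-scaled CPM in the 12 libraries for S100A10 with ANXA2 and AHNAK, for S100A11 with ANXA1, and for S100A14. Points are libraries and bars give the mean and SD of 3 libraries, on linear axes from 0. ANXA2 and AHNAK are lower with shUHRF1 in both lines, ANXA1 has group means of 787.7 to 825.1 CPM, and S100A14 is higher with shUHRF1 in both lines.

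Among 8 tested genes of plasminogen activation and of S100A13-linked release, 3 rose and 4 fell in Kyse410, with a median log2 fold change of −0.18, and 2 rose and 4 fell in TE10, with a median of −0.27. The share of all genes called was 49.3% in Kyse410 and 38.8% in TE10. PLAT, which encodes tissue plasminogen activator, rose by 0.35 ± 0.0894 in Kyse410 (adjusted p = 0.000847) and fell by 1.81 ± 0.119 in TE10 (adjusted p = 1.96e-18). PLAU, which encodes urokinase, fell by 1.20 ± 0.135 in Kyse410 (adjusted p = 9.27e-11) and by 1.94 ± 0.207 in TE10 (adjusted p = 3.79e-11).

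S100A2, S100A4 and S100A6 are calcium sensors with targets inside the cell. S100A2 is a gene of basal keratinocytes. It had 39.7, 37.4 and 34.1 CPM in Kyse410 with shUHRF1, against 42.99, 40.6 and 40.2 CPM with scramble. In TE10 it had 102, 93.5 and 107 CPM with shUHRF1, against 185, 181 and 164 CPM with scramble. The groups were apart in both lines, by a narrow margin in Kyse410 and a wide one in TE10. The fall in TE10 was 42.75% (log2 −0.80 ± 0.0573; adjusted p = 4.54e-17). In Kyse410 the log2 fold change was −0.15 ± 0.0724 (adjusted p = 0.0749), and without shUHRF1 replicate 1 it was −0.20 (adjusted p = 0.0312). The responses differed by 0.65 ± 0.0925 between the lines (adjusted p = 7.75e-08). Squamous markers moved in TE10 too, where 6 of 9 tested fell and 2 rose, against 38.8% of all genes called. In Kyse410, where 49.3% of all genes were called, 6 of these markers rose and 2 fell. Their summed level was 1543 to 1602 CPM in Kyse410 with shUHRF1 against 1346 to 1364 CPM with scramble, and 1178 to 1235 CPM in TE10 with shUHRF1 against 1287 to 1330 CPM with scramble. In Kyse410 the sum was carried mostly by KRT13, a keratin of stratified mucosa, at 1072 ± 34.9 CPM with shUHRF1 and 886 ± 12.2 CPM with scramble (mean ± SD, n = 3 each). The keratin genes KRT14 and KRT17 fell in both lines, and they were the 2 markers that fell in Kyse410. Those that rose there were TP63, KRT6A, DSG3, PERP, KRT13 and KRT4. KRT4 had 99 reads in Kyse410 with shUHRF1 against 8 with scramble (log2 3.57 ± 0.428; adjusted p = 5.69e-10). KRT14 fell by 1.79 ± 0.243 in Kyse410 (adjusted p = 1.29e-08), from 145 reads with scramble to 41 with shUHRF1. In TE10 KRT14 fell by 2.28 ± 0.115. Its level with scramble was 4.39 CPM in Kyse410 and 55.2 CPM in TE10. KRT17 fell by 0.98 ± 0.0633 in Kyse410 (adjusted p = 5.645e-19) and by 1.19 ± 0.0737 in TE10. KRT5, a basal keratin gene, had 1.37 ± 0.267 CPM in Kyse410 with shUHRF1 and 1.14 ± 0.5675 CPM with scramble, and 8.05 ± 0.455 CPM in TE10 with shUHRF1 and 67.4 ± 1.06 CPM with scramble. The part of these markers in the S100A2 result was not tested.

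TP63, which encodes the basal squamous factor p63, fell by 0.69 ± 0.0626 in TE10 (adjusted p = 3.025e-13). In Kyse410 TP63 was at 0.14 ± 0.05485 (adjusted p = 0.0264), a call lost without shUHRF1 replicate 3, scramble replicate 1 or scramble replicate 2 (adjusted p = 0.123, 0.108 and 0.0560). Of the 13 intracellular partners tested, 5 rose and 3 fell in Kyse410, with a median log2 fold change of 0.03, and 3 rose and 5 fell in TE10, with a median of 0.08. For comparison, 49.3% of all genes were called in Kyse410 and 38.8% in TE10.

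S100A4, also called metastasin, binds the tails of non-muscle myosin and is used as a marker of mesenchymal cells and fibroblasts. It had 16.9, 15.7 and 16.9 CPM in Kyse410 with shUHRF1, against 11.1, 8.875 and 10.04 CPM with scramble. The TE10 levels were 13.9, 16.1 and 12.1 CPM with shUHRF1, against 19.6, 11.4 and 16.7 CPM with scramble. The groups were apart in Kyse410 and overlapped in TE10, where scramble replicate 2 was the lowest of all 6 libraries. S100A4 rose 1.635-fold in Kyse410 (log2 0.71 ± 0.137; adjusted p = 1.83e-05). In TE10 the log2 fold change was −0.18 ± 0.1425 (adjusted p = 0.342), and without scramble replicate 2 it was −0.37 (adjusted p = 0.0383). The responses differed by 0.89 ± 0.1975 between the lines (adjusted p = 0.000245).

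Of 3 tested fibroblast and endothelial markers, 2 rose and 1 fell in Kyse410, and 2 rose and 1 fell in TE10. Among all genes tested, 49.3% were called in Kyse410 and 38.8% in TE10. The 8 markers matched summed to 242 to 267 CPM in Kyse410 with shUHRF1 against 139 to 149 CPM with scramble, and to 61.7 to 71.05 CPM in TE10 with shUHRF1 against 54.2 to 58.7 CPM with scramble. In Kyse410 the sum was mostly COL1A1, a collagen gene, at 154 ± 7.02 CPM with shUHRF1 and 114 ± 6.04 CPM with scramble, and CDH5, an endothelial cadherin gene, at 95.7 ± 7.63 CPM with shUHRF1 and 24.7 ± 0.1695 CPM with scramble. PDGFRB, a marker of fibroblasts and pericytes, fell in Kyse410 by 0.74 ± 0.226 (adjusted p = 0.00517). The defining fibroblast genes COL3A1, DCN and LUM had 0 reads in both Kyse410 groups. The part of these markers in the S100A4 result was not tested.

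Among mesenchymal genes VIM moved with S100A4 in Kyse410 and the other 4 listed went the other way. VIM, which encodes the mesenchymal filament protein vimentin, rose by 0.32 ± 0.0439 in Kyse410 (adjusted p = 1.32e-08) and fell by 1.25 ± 0.0375 in TE10 (adjusted p = 1.03e-32). FN1, which encodes fibronectin, fell by 1.17 ± 0.0411 in Kyse410 and by 0.97 ± 0.0406 in TE10. CDH2, which encodes N-cadherin, fell by 1.04 ± 0.122 in Kyse410 and by 0.85 ± 0.108 in TE10. The transcription factor genes SNAI2 and ZEB1 fell too, by 0.88 ± 0.051 and 0.78 ± 0.161 in Kyse410 and by 0.54 ± 0.0698 and 1.05 ± 0.158 in TE10. All 3 epithelial genes of the list rose in both lines: CDH1, which encodes E-cadherin, by 0.79 ± 0.0458 in Kyse410 and by 1.20 ± 0.0565 in TE10, EPCAM by 0.28 ± 0.0488 in Kyse410 and 0.73 ± 0.0510 in TE10, and KRT19 by 1.34 ± 0.0452 in Kyse410 and 1.07 ± 0.0410 in TE10. MYH9, the gene of a myosin heavy chain that S100A4 binds, fell by 0.40 ± 0.0350 in Kyse410 (adjusted p = 2.84e-14) and by 0.27 ± 0.0349 in TE10 (adjusted p = 8.025e-09). Over the list's 5 mesenchymal and 3 epithelial genes, 4 rose and 4 fell in Kyse410, with a median log2 fold change of −0.25, and 3 rose and 5 fell in TE10, with a median of −0.70. Calls over all genes stood at 49.3% in Kyse410 and 38.8% in TE10.

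S100A6, also called calcyclin, is found in many proliferating cells. It had 337, 307 and 299.9 CPM in Kyse410 with shUHRF1, against 403, 388 and 389.6 CPM with scramble. In TE10 it had 342, 300.4 and 362 CPM with shUHRF1, against 332.5, 322 and 319 CPM with scramble. All knockdown libraries were lower in Kyse410, and the groups overlapped in TE10. The fall in Kyse410 was 20.03% (log2 −0.32 ± 0.0448; adjusted p = 2.52e-08). In TE10 the log2 fold change was 0.04 ± 0.0467 (adjusted p = 0.481), and without shUHRF1 replicate 2 it was 0.12 (adjusted p = 0.0377). The difference between lines was −0.37 ± 0.0647 (adjusted p = 6.51e-06). CACYBP, which encodes the calcyclin-binding protein, rose by 0.44 ± 0.0658 in Kyse410 (adjusted p = 1.475e-07) and was at 0.11 ± 0.0491 in TE10 (adjusted p = 0.0650). The TE10 value passed with the TE10 groups alone (adjusted p = 0.02465), with DESeq2 size factors (0.0258) and in DESeq2 itself (0.0493). It also passed without TE10 shUHRF1 replicate 1 (adjusted p = 0.0303) and without Kyse410 shUHRF1 replicate 1 or 3 (0.0311 and 0.04315). Of S100A6 exon bases, 2.4% also lie in an antisense gene.

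S100A16 is expressed in many tissues. It had 229.7, 215 and 234 CPM in Kyse410 with shUHRF1, against 297, 275.5 and 298 CPM with scramble. For TE10 the values were 403, 409 and 417 CPM with shUHRF1, against 475, 459 and 479.6 CPM with scramble. The knockdown libraries were lower in both lines without overlap. The fall was 22.2% in Kyse410 (log2 −0.36 ± 0.0407; adjusted p = 9.52e-11) and 13.04% in TE10 (log2 −0.20 ± 0.0395; adjusted p = 3.83e-05). The difference between lines was small, −0.16 ± 0.0567 (adjusted p = 0.0205). It did not pass without a filter on low counts (adjusted p = 0.07955). Nor did it pass without TE10 scramble replicate 2 (adjusted p = 0.0675), Kyse410 shUHRF1 replicate 2 (log2 −0.10, 0.1865), Kyse410 scramble replicate 1 (0.0643) or Kyse410 scramble replicate 3 (0.0629).

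S100A3 and S100A13 were scarce. S100A3, a protein of the hair cuticle, had 55, 41 and 34 reads in Kyse410 with shUHRF1, against 32, 19 and 36 reads with scramble. These came to 5.02, 3.36 and 3.69 CPM with shUHRF1 and 2.6, 1.94 and 3.41 CPM with scramble, so the groups overlapped. TE10 had 14, 29 and 29 reads with shUHRF1, against 41, 48 and 63 reads with scramble. As CPM these were 1.78, 3.71 and 3.85 with shUHRF1 and 5.30, 5.71 and 6.67 with scramble, and there the groups were apart. S100A3 rose in Kyse410 by 0.59 ± 0.252 on the log2 scale, close to the threshold (adjusted p = 0.0469). That call was lost in DESeq2 (adjusted p = 0.0805) and without Kyse410 shUHRF1 replicate 1 or 3 (0.262 and 0.0519). It was also lost without Kyse410 scramble replicate 1 or 2 (adjusted p = 0.1065 and 0.204) and without TE10 scramble replicate 2 (0.0505). S100A3 fell in TE10 by 0.93 ± 0.2555 (adjusted p = 0.00280), and without shUHRF1 replicate 1 it was at −0.62 (adjusted p = 0.0622). The responses differed by 1.52 ± 0.359 (adjusted p = 0.000535).

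S100A13 takes part in the release of FGF1 and IL1A, which leave the cell without a signal peptide. It had 7.03, 4.01 and 6.18 CPM in Kyse410 with shUHRF1, against 4.88, 5.61 and 5.78 CPM with scramble. In TE10 it had 4.71, 4.22 and 5.97 CPM with shUHRF1, against 5.30, 6.54 and 6.04 CPM with scramble. The groups overlapped in both lines. The log2 fold change was 0.07 in Kyse410 (95% interval −0.31 to 0.46; adjusted p = 0.781) and −0.27 in TE10 (−0.70 to 0.16; adjusted p = 0.342). At 33 to 77 reads a library, a change within these intervals is not excluded. The merged exons of S100A13 share 33.5% of their bases with other genes, S100A1 on the opposite strand among them. With no strand setting stated, reads of S100A13 and S100A1 cannot be fully told apart. IL1A, an alarmin of squamous cells, fell by 0.50 ± 0.0418 in Kyse410 (adjusted p = 8.29e-15) and by 0.52 ± 0.0879 in TE10 (adjusted p = 3.35e-06). FGF1 had at most 13 reads in any group and was not tested.

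AGER, which encodes the S100 receptor RAGE, had 7.42 ± 0.230 CPM in Kyse410 with shUHRF1 and 8.82 ± 0.582 CPM with scramble. In TE10 AGER had 5.59 ± 1.11 CPM with shUHRF1 and 5.945 ± 0.671 CPM with scramble. Its log2 fold change was −0.25 ± 0.156 in Kyse410 (adjusted p = 0.192) and −0.09 ± 0.191 in TE10 (adjusted p = 0.740). Of 5 tested receptor genes, 1 rose and 3 fell in Kyse410, with a median of −0.32, and 2 rose and 2 fell in TE10, with a median of −0.09. Genes called made up 49.3% of all tested in Kyse410 and 38.8% in TE10. BSG, which encodes basigin, rose by 0.28 ± 0.0366 in Kyse410 and by 0.23 ± 0.0378 in TE10. TLR4, a receptor of innate immunity, fell by 1.38 ± 0.406 in Kyse410 (adjusted p = 0.00391) and by 0.95 ± 0.178 in TE10. It was scarce in Kyse410, with 17 reads in all with shUHRF1 against 45 with scramble. SDC4, a syndecan, fell by 0.73 ± 0.0370 in Kyse410 and rose by 0.16 ± 0.0467 in TE10 (adjusted p = 0.00582 in TE10, and 0.0641 without shUHRF1 replicate 3). ALCAM, a cell adhesion molecule, fell by 0.32 ± 0.0446 in Kyse410 and by 0.18 ± 0.0515 in TE10 (adjusted p = 0.00508 in TE10, and 0.0577 without shUHRF1 replicate 1).

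Other genes of the S100 family and genes of the same stretch of chromosome 1 were read beside the members. Of 13 listed genes (other S100 genes and S100PBP, which encodes a binding protein of S100P), 4 were tested. In Kyse410, where 49.3% of all genes were called, 4 rose and 0 fell. In TE10, where 38.8% of all genes were called, 2 rose and 1 fell. Without Kyse410 shUHRF1 replicate 1 or Kyse410 scramble replicate 3, 2 of them were called in Kyse410. The calgranulin genes S100A8, S100A9 and S100A12 had at most 6 reads in any group. S100A14, the gene next to S100A16 in RefSeq order, had 160.1, 153.5 and 139 CPM in Kyse410 with shUHRF1, against 77.04, 80.4 and 73.7 CPM with scramble. TE10 cells had 115, 107.5 and 119.8 CPM with shUHRF1, against 52.98, 54.3 and 56.55 CPM with scramble. S100A14 rose by 0.97 ± 0.0545 in Kyse410 (adjusted p = 1.92e-21) and by 1.06 ± 0.0625 in TE10 (adjusted p = 2.91e-20), while its neighbour S100A16 fell. The ratio of S100A14 to S100A16 reads was 0.697, 0.714 and 0.595 in Kyse410 with shUHRF1, against 0.259, 0.292 and 0.247 with scramble. In TE10 the ratio was 0.286, 0.2625 and 0.287 with shUHRF1, against 0.112, 0.118 and 0.118 with scramble. It was higher with shUHRF1 in every library of each line. Its log2 difference was 1.33 in Kyse410 and 1.26 in TE10, each with a two-sided exact permutation p = 0.1, the smallest that 3 against 3 libraries allow. That p adds nothing to the results above, since both genes were already apart in opposite directions in each line.

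S100P, which lies outside the cluster, rose in both lines, by 0.29 ± 0.0615 in Kyse410 (adjusted p = 8.96e-05) and by 0.77 ± 0.0754 in TE10 (adjusted p = 2.415e-12). S100PBP was at 0.19 ± 0.0750 in Kyse410 (adjusted p = 0.0325) and fell by 0.33 ± 0.0909 in TE10 (adjusted p = 0.00252). S100A1, best known from heart muscle, was at 0.78 ± 0.307 in Kyse410 (adjusted p = 0.0315) and at 0.41 ± 0.355 in TE10 (adjusted p = 0.392). Both Kyse410 calls were lost without shUHRF1 replicate 1 (adjusted p = 0.0745 for S100PBP and 0.216 for S100A1) and without scramble replicate 3 (0.0906 and 0.0748). S100PBP also lost its call without shUHRF1 replicate 3 (adjusted p = 0.0524), without scramble replicate 1 (0.118) and without a filter on low counts (0.0553). S100A1 lost its call without scramble replicate 2 (adjusted p = 0.154) and in DESeq2 (0.0649).

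Of 20 tested genes of the same region that are not S100 genes, 3 rose and 7 fell in Kyse410, and 3 rose and 4 fell in TE10. Over all genes tested, 49.3% were called in Kyse410 and 38.8% in TE10. The median log2 fold change was −0.07 in Kyse410 and −0.02 in TE10. TUFT1 (log2 −0.79 ± 0.06425) and SLC39A1 (−0.51 ± 0.0430), a zinc transporter gene, had the smallest adjusted p in Kyse410. RAB13 (−1.03 ± 0.109), which encodes a small GTPase of tight junction traffic, and JTB (0.54 ± 0.0671) had the smallest in TE10. All 9 S100A genes have merged exons under 2500 bases, and among the 4034 tested genes of that length the median log2 fold change was −0.008 in Kyse410 and 0.061 in TE10.

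Kyse410 scramble cells were compared with TE10 scramble cells to see how the family differs between the lines without the UHRF1 hairpin. These libraries are also the controls of the comparisons above. Of the 8 tested genes, 5 were lower in Kyse410 (S100A2, S100A3, S100A4, S100A10 and S100A16) and 1 was higher (S100A6), where 73.7% of all genes were called (37.1% lower and 36.7% higher). The members' median was −0.68. S100A2 was 4.27-fold lower in Kyse410 (log2 −2.09 ± 0.0617; adjusted p = 1.81e-34), at 41.25 ± 1.52 CPM in Kyse410 and 177 ± 10.9 CPM in TE10. S100A10 was 1.895-fold lower (log2 −0.92 ± 0.0420; adjusted p = 4.525e-26), at 171.5 ± 1.705 CPM in Kyse410 and 325 ± 6.72 CPM in TE10. S100A16 was 1.62-fold lower (log2 −0.70 ± 0.0396; adjusted p = 4.61e-22). The scarce genes S100A3 (log2 −1.15 ± 0.246; adjusted p = 4.46e-05) and S100A4 (−0.66 ± 0.142; adjusted p = 5.47e-05) were lower as well. S100A6 was 1.21-fold higher in Kyse410 (log2 0.28 ± 0.0454; adjusted p = 3.22e-07), at 393 ± 8.26 CPM in Kyse410 and 324.5 ± 7.18 CPM in TE10. The groups did not overlap for any of these 6 genes, and the share of all genes tested without overlap was not counted. S100A11 was at −0.05 (95% interval −0.13 to 0.03; adjusted p = 0.250) and S100A13 at −0.14 (−0.54 to 0.26; adjusted p = 0.520). Of the 20 tested neighbours that are not S100 genes, 8 were higher and 8 lower in Kyse410.

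The response to knockdown was compared between the lines gene by gene. Of the 8 tested genes, 6 differed between Kyse410 and TE10, against 38.9% of all genes tested. For S100A2, S100A3, S100A4 and S100A10 the response was more positive in Kyse410 (19.0% of all genes), and for S100A6 and S100A16 it was more negative (19.9% of all genes). S100A11 and S100A13 did not pass, and for S100A13 the interval was wide (log2 0.34, −0.24 to 0.92; adjusted p = 0.373).

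Genes with the pattern most like each member were found by the root mean square difference of log2 CPM over the 12 libraries, after centring each gene on its own mean, among 11752 genes with at least 5 CPM on average. For S100A2, whose own SD over the libraries was 0.975 on the log2 scale, these were HMGA2 (0.111), a chromatin protein gene, and PCDH7 (0.1605), a protocadherin gene. For S100A10 (SD 0.4395) they were KPNB1 (0.0896), an importin gene, and STYX (0.0902), and for S100A16 (SD 0.436) they were SUPT4H1 (0.0593) and CORO1C (0.0612). S100A11 (SD 0.186) lay closest to FBN2 (0.0527) and OTUD5 (0.0556), and S100A6 (SD 0.149) lay closest to LGALS3 (0.0635), which encodes galectin-3, and NAXD (0.0664). S100A4 (SD 0.353) was nearest to NUDT4 (0.167) and HAS3 (0.177), a hyaluronan synthase gene. S100A13 (SD 0.240) was nearest to RGS12 (0.159). The 12 libraries fall into 4 groups, so likeness rests mainly on the 4 group means.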

How the data were processed

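The authors deposited raw counts for each of the 12 libraries, whole numbers of reads per Ensembl gene, followed by HTSeq's counters of unassigned reads. The submitters' processing notes give GRCh37.p13 as the build and, as tools, DESeq2, HTSeq 0.9.1, HISAT2 2.1.0 and bcl2fastq 2.19. Neither strand setting nor annotation release is given in the sources used here. Of 57820 identifiers, 51996 were matched to symbols, with 98.89% of gene reads, and the UHRF1 identifier was named by hand. Exon lengths and overlaps came from GENCODE release 29, of another build, so no gene positions are given beside the RefSeq promoter windows. Reads without a feature took 42.88 to 44.66% of each library and stayed out of totals. Between replicates the chi-square per degree of freedom was 1.57 to 2.92 over genes with at least 20 counts, so no pair was 1 library deposited again.

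Counts were filtered with filterByExpr by group, scaled by TMM and fitted with edgeR 4.0.16 (limma 3.58.1, R 4.3.3), with a mean per group over all 12 libraries and 8 residual degrees of freedom. Contrasts were shUHRF1 minus scramble in each line, their difference and Kyse410 minus TE10 among scramble controls. Same-numbered libraries did not deviate together, so no block was used. Tables and plots used SciPy 1.17.1, matplotlib 3.10.9, numpy 2.4.6 and pandas 2.3.3 under Python 3.11.15, and the pipeline was tested on simulated data. Alternatives were 2 other scalings, DESeq2 1.42.0, no filter on low counts, the groups of a comparison alone, a replicate block, mitochondrial transcripts left out and each library left out.

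The S100A genes and all lists (other S100 genes, annexins, binding partners, plasminogen and release partners, receptors, neighbours on chromosome 1, mesenchymal and epithelial genes, and squamous, blood, and fibroblast and endothelial markers) were chosen with earlier results of these data known. The text names every S100A gene, UHRF1, a set of known partners, the called list members with the smallest adjusted p in each line and the genes of most similar pattern, and not all genes that this rule takes are printed. KRT6A, KRT13, DSG3, PERP, ALCAM, S100A1 and S100PBP fall outside it and were chosen after their values were seen. One binding partner counted in its list is not reported here by name.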

Additional observations from a re-analysis of the deposited data

Results flagged for a closer look

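The log2 response to shUHRF1 differed between the lines for 6 of the 8 S100A genes tested, by the test of the difference itself (Kyse410 minus TE10, edgeR adjusted p under 0.05), against 38.9% of all genes tested. The difference was 0.65 for S100A2, 1.52 for S100A3, 0.89 for S100A4 and 0.33 for S100A10. It was −0.37 for S100A6 and −0.16 for S100A16, and that of S100A16 was lost in the alternatives named with its result.

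Among the partners, the difference was 0.65 for AHNAK, 0.37 for ANXA11, 0.33 for CACYBP and −0.13 for MYH9. It was 2.17 for PLAT, 0.83 for TP63 and 0.74 for PLAU. The difference of PLAU did not pass without TE10 shUHRF1 replicate 1 (0.61, adjusted p = 0.0866) or Kyse410 shUHRF1 replicate 1 (0.57, 0.0809). That of MYH9 did not pass without scaling beyond library totals (adjusted p = 0.0589) or without a filter (0.121). Nor did it pass without TE10 shUHRF1 replicate 3, TE10 scramble replicate 2 or 3, Kyse410 shUHRF1 replicate 2 or Kyse410 scramble replicate 1 or 3, at adjusted p of 0.0516 to 0.179. Other genes with a tested difference were S100P (−0.49), S100PBP (0.52), the receptor gene SDC4 (−0.88), VIM (1.57), CDH1 (−0.41), EPCAM (−0.45), KRT19 (0.27), FN1 (−0.20) and SNAI2 (−0.33). Among the cell type markers it was 3.29 for KRT5, −0.50 for KRT13, 1.51 for PDGFRB and 1.34 for CDH5. In the stretch of chromosome 1 around the S100A genes, it was −1.24 for TUFT1, −0.58 for SLC39A1, −0.72 for JTB and 0.84 for RAB13.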

How the results depend on the processing

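The number of S100A genes called stayed within 1.5 times its value under every alternative run. Leaving out each of the 12 libraries in turn gave 5 to 6 called in Kyse410, 4 to 6 in TE10, 5 to 6 for the difference between lines and 6 in each case between the scramble controls. Of 600 values of single S100A genes under an alternative, 585 kept their direction and their side of the threshold, 12 no longer passed, 3 newly passed and 0 changed sign with a call. The changed calls are those of S100A2, S100A3, S100A4, S100A6 and S100A16 given with the results. Over all genes, leaving out a library gave 7140 to 8057 calls in Kyse410, 5442 to 6471 in TE10, 5758 to 6134 for the difference and 11396 to 12023 between the scramble controls.

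The replicate block gave 6 S100A genes called in Kyse410, 5 in TE10, 6 for the difference and 6 between the scramble controls, the counts without it, and changed no call of an S100A gene. The replicate numbers do not pair the libraries: same-numbered libraries of different groups correlated at −0.047 to 0.043 in their deviations from the group means, and 13 of 36 best matches had the same number. Depth limits S100A3, S100A5 and S100A13 most.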
